A study of Mus musculus with 6 samples.

Results

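The chemokine ligands examined here were 8 genes chosen by symbol, Cxcl1, Cxcl5, Cxcl12, Cxcl14, Ccl2, Ccl7, Ccl11 and Cx3cl1, of 30406 genes listed in every library of the series. All 8 were listed in all 6 libraries. The series consisted of single-nucleus RNA sequencing of tibial periosteum, the sheath of the outer bone surface, from C57BL6 mice, which were 12 weeks old and of mixed sex. The groups were uninjured periosteum (2 libraries, each from the pooled tibias of 4 mice) and injured periosteum with its hematoma or callus at day 3 (2 libraries), day 5 (1 library) and day 7 (1 library) after an open, non-stabilized tibial fracture, each from 4 to 9 pooled mice. The labels name no genetic manipulation or drug treatment, and pooling left no measure of the spread between animals. The libraries differed as well in the Cell Ranger version that made them, 6.0.0 for uninjured replicate 1, day 5 and day 7, and 7.1.0 for uninjured replicate 2 and both day 3 libraries.

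The 6 libraries held 13551 barcodes and 1499281 to 29796296 unique molecular identifiers (UMIs, each marking 1 captured RNA molecule). After quality limits and the removal of muscle nuclei, 6270 nuclei remained, 356 to 2159 a library, in 26 clusters. By markers, 3048 nuclei were stromal (skeletal stem/progenitor, fibroblast-like, injury-induced fibrogenic cell (IIFC)-like, tendon-, bone- and cartilage-like), 1754 were immune and 664 were endothelial-like, and 339 nuclei in 2 clusters stayed unnamed. Library pairs shared 0 to 7 barcodes. Cell makeup moved strongly with injury: immune-like nuclei were 3.55% and 8.12% of nuclei before injury, 41.6% and 68.1% by day 3, 25.3% by day 5 and 10.8% by day 7, while endothelial-like nuclei were 38.4% and 22.9% before injury and 5.34% and 3.29% in the day 3 libraries. Levels are therefore given mainly within a class of nuclei, in CPM, the UMIs of a gene scaled to the same total of UMIs in every library and class. On this scale the 8 fibroblast markers summed to 1013 to 7232 CPM in stromal nuclei, 111.8 to 1188 CPM in immune nuclei and 81.8 to 284.3 CPM in endothelial-like nuclei. They did not mark stromal nuclei alone. Their sum was 6247 to 52550 CPM in Schwann-like nuclei and 601 to 7226 CPM in 1 of the unnamed clusters. Library sums of day 3 and uninjured periosteum were compared by the quasi-likelihood test of edgeR, with p-values adjusted over all genes tested (Benjamini-Hochberg), whereas days 5 and 7, with 1 library each, are given with exact Poisson 95% intervals that cover counting error only.

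Chemokines are small proteins that direct the movement of leukocytes and other cells through G-protein-coupled receptors. CXC ligands of the neutrophil-attracting kind, such as Cxcl1 and Cxcl5, act through Cxcr2, and the CC ligands Ccl2 and Ccl7 draw monocytes out of blood and marrow through Ccr2. Cxcl12 is a homeostatic ligand of Cxcr4 that holds hematopoietic cells in the marrow, whereas Ccl11 attracts eosinophils through Ccr3 and Cx3cl1 is a membrane-bound ligand of Cx3cr1.

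The genes fell at 5 chromosomal locations in GRCm38 (GENCODE annotation). Cxcl5 (ENSMUSG00000029371, chr5:90759360-90761624) and Cxcl1 (ENSMUSG00000029380, chr5:90891241-90893115) lay on the plus strand of the CXC cluster of chromosome 5. Ccl2 (chr11:82035571-82037453), Ccl7 (chr11:82045712-82047525) and Ccl11 (chr11:82057823-82062955) followed each other on the plus strand of chromosome 11. Cxcl12 (chr6:117168535-117181367, plus strand), Cxcl14 (chr13:56288643-56296551, minus strand) and Cx3cl1 (chr8:94772009-94782427, plus strand) were each the only one of the 8 genes on its chromosome.

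RefSeq promoter sequences on GRCm38.p6 were matched for 4 of the 8 genes, Cxcl1, Cxcl12, Cxcl14 and Cx3cl1. The 250 bases before the start of Cxcl1 and of Cxcl12 are shown, because these ligands differed in their course after fracture, with 5′ to 3′ letters of the plus strand and capitals on matches to a kappaB-type motif (GGG and TTTCC with 2 bases of any kind between them, on either strand).
Cxcl1, chr5:90890995-90891244: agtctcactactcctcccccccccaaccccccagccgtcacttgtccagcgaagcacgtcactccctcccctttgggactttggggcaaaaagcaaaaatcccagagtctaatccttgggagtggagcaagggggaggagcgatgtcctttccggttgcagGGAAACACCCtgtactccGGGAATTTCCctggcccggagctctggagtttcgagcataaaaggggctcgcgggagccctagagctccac
Cxcl12, chr6:117168285-117168534: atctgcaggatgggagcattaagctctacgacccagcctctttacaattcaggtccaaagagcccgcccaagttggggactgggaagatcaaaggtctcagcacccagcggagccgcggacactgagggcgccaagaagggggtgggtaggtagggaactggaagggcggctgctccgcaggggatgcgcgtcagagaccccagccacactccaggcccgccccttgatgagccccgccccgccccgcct
Cxcl1 held 2 kappaB-type matches, whose first bases lay at -89 and -71 from the start, and Cxcl12, Cxcl14 and Cx3cl1 held 0 each. Of 32851 promoters in the same window, from 250 bases before to 50 after the start, 1.63% held such a match on either strand. Cxcl12 held 5 matches and Cxcl14 held 3 matches to the GC box (CCGCCC or GGGCGG), present in 35.7% of all promoters, and Cx3cl1 held 1. These are matches of letters and not measured binding sites.

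Cxcl5, a neutrophil attractant, had the largest log2 fold change among the ligands tested in stromal nuclei. Its stromal level was 0 and 1.74 CPM (0 and 3 UMIs) in the uninjured libraries, 143 and 195 CPM (60 and 383 UMIs) at day 3, 4.14 CPM (2.68 to 6.11) at day 5 and 4.09 CPM (1.64 to 8.42) at day 7. The day 3 libraries stood far above the uninjured ones with no overlap, and the day 5 and day 7 levels were back near the bottom of the range. The group means were 0.869 ± 1.23 CPM and 168.8 ± 36.6 CPM (SD, n = 2 each), a log2 fold change of 6.66 ± 0.60 (SE, adjusted p = 0.00071158, edgeR). Over pooled UMIs this was a ratio of 121.1 (counting interval 41.2 to 589.6).

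Cxcl1, which acts on the same receptor, was likewise highest in the day 3 libraries, at fewer counts. Its stromal level was 0 and 1.16 CPM in the uninjured libraries, 16.7 and 36.6 CPM (7 and 72 UMIs) at day 3 and 3.15 CPM (1.90 to 4.92) at day 5, and 0 UMIs were counted at day 7, which allows up to 2.15 CPM. The groups did not overlap, with means of 0.580 ± 0.820 and 26.7 ± 14.1 CPM (SD, n = 2 each), and Cxcl1 rose by a log2 fold change of 4.58 ± 0.93 (adjusted p = 0.015535, edgeR).

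The monocyte attractants Ccl2 and Ccl7 rose in the same stromal comparison. Stromal Ccl2 was 0 and 0.579 CPM (0 and 1 UMI) in uninjured periosteum, 21.5 and 59.0 CPM (9 and 116 UMIs) at day 3, 3.48 CPM (2.15 to 5.32) at day 5 and 0.584 CPM (1 UMI) at day 7. The groups did not overlap, and the log2 fold change was 6.01 ± 1.00 (adjusted p = 0.0067722, edgeR), with a ratio of pooled UMIs of 102.5 whose counting interval, 18.1 to 4082, reflects the single uninjured UMI. Stromal Ccl7 was 0 and 6.37 CPM (0 and 11 UMIs) before injury, 38.1 and 75.2 CPM (16 and 148 UMIs) at day 3, 6.30 CPM (4.46 to 8.64) at day 5 and 2.92 CPM (5 UMIs) at day 7. Ccl7 was already counted in uninjured replicate 2, and its log2 fold change was 3.39 ± 0.70 (adjusted p = 0.016439, edgeR).

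Thus 4 of the 6 ligands tested in stromal nuclei passed as higher at day 3 and 0 as lower, where 3.91% of all 10086 genes tested were higher and 5.45% lower. Ccl11 and Cx3cl1 did not pass the filter on low counts. The median log2 fold change of the 6 was 3.99, against 0.01 over all genes tested. Of these, Cxcl5, Cxcl1 and Ccl2 were almost absent from the uninjured libraries and passed the count filter through their day 3 counts. The ligands were also chosen with earlier results of these data known. This count and median, and the count over all nuclei below, are therefore a description. Without uninjured replicate 1, which leaves libraries of Cell Ranger 7.1.0 and 1 uninjured library that is assumed to vary like the day 3 pair, the 4 still passed (log2 fold changes of 6.48 for Cxcl5, 5.90 for Ccl2, 4.41 for Cxcl1 and 3.09 for Ccl7). The calls leaned on the deeper day 3 library: without day 3 replicate 2 only Cxcl5 passed (log2 fold change 6.60), Ccl7 had an adjusted p of 0.20756 (edgeR), and Cxcl1 and Ccl2 were not tested because of their low counts. Without uninjured replicate 2, Cxcl5 and Ccl7 passed, and the adjusted p was 0.063084 for Ccl2 and 0.14438 for Cxcl1 (edgeR).

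The stromal class itself held other clusters at day 3 than before injury. Its IIFC-like clusters were 0.769% and 1.33%, and 3.85% and 0.889%, of stromal nuclei in the uninjured libraries and 8.46% and 13.3%, and 20.8% and 15.03%, in the day 3 libraries, while a fibroblast-like cluster was 26.2% and 7.78% before injury and 2.31% and 1.75% at day 3. The part of this shift in the stromal differences was not tested. The mixed stromal cluster was of more even share, 27.7% and 26.0% before injury and 29.2% and 35.7% at day 3. Within it Cxcl5 was 0 and 1.88 CPM (0 and 1 UMI) in the uninjured libraries and 132.3 and 334 CPM at day 3, with no overlap. Ccl2 was 0 and 1.88 CPM there before injury and 7.78 and 57.2 CPM at day 3, Cxcl1 was 0 and 3.75 CPM and 23.4 and 35.9 CPM, and Ccl7 was 0 and 11.3 CPM and 62.3 and 114.4 CPM. These 3 ligands had 1 to 8 UMIs each there in day 3 replicate 1. The levels in this cluster are a description with no test. The tested stromal sums include it, and the share of all genes that separate likewise in it was not computed.

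**Figure D1:**
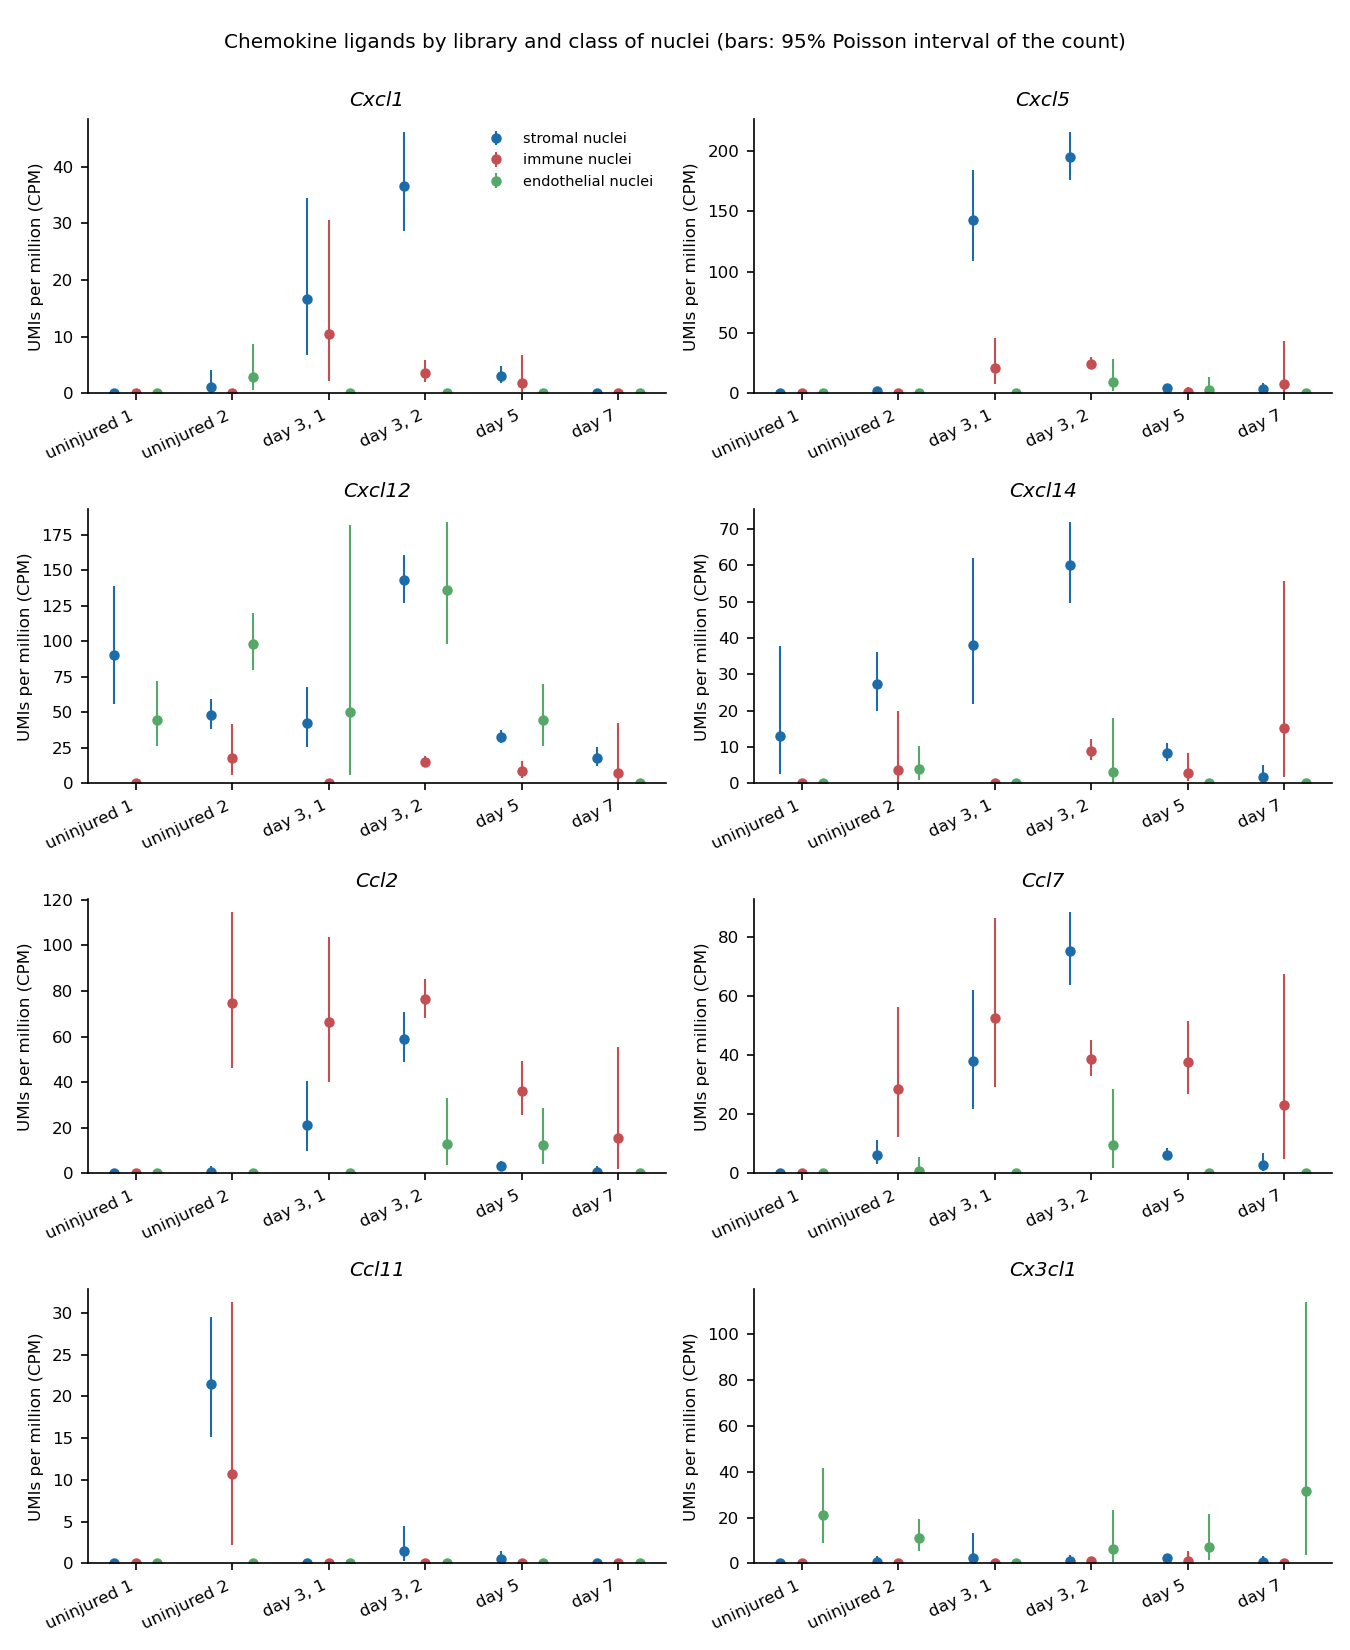
Level of each ligand (vertical axes, CPM) in stromal, immune and endothelial nuclei of the 6 libraries (horizontal axes); bars are exact Poisson 95% intervals, which cover counting error only. Stromal Cxcl5 stood at 143 and 195 CPM at day 3 and at 4.14 and 4.09 CPM at days 5 and 7.

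The homeostatic ligands Cxcl12 and Cxcl14 did not pass the test in stromal nuclei. Stromal Cxcl12 was 90.7 and 48.1 CPM in the uninjured libraries, 42.9 and 143 CPM at day 3, 32.6 CPM (28.2 to 37.5) at day 5 and 18.1 CPM (12.3 to 25.7) at day 7. The day 3 libraries lay on either side of the uninjured pair, so the groups overlapped, with means of 69.4 ± 30.1 and 93.1 ± 71.0 CPM (SD, n = 2 each) and a log2 fold change of 0.45 ± 0.52 (adjusted p = 0.69736, edgeR), whose sign turned without day 3 replicate 2 (-0.45) and without uninjured replicate 2 (-0.01). Stromal Cxcl14, a chemokine of fibroblasts and epithelia, was 12.96 and 27.2 CPM before injury, 38.1 and 59.98 CPM at day 3, 8.45 CPM (6.29 to 11.1) at day 5 and 1.75 CPM (3 UMIs) at day 7. Its groups did not overlap, but the difference did not pass the test (log2 fold change 1.06 ± 0.52, adjusted p = 0.27326, edgeR).

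Ccl11 was almost a property of 1 library. Stromal nuclei of uninjured replicate 2 held 37 UMIs in 19 nuclei, or 21.4 CPM (15.1 to 29.5), while uninjured replicate 1 held 0 UMIs in 130 stromal nuclei and the day 3 libraries held 0 and 3 UMIs. Days 5 and 7 held 3 and 0 UMIs. The ratio of pooled stromal UMIs, uninjured over day 3, was 15.04 (counting interval 4.76 to 76.2), but all uninjured UMIs came from 1 library, and Ccl11 did not pass the count filter. In that library 20 of the UMIs lay in the mixed stromal cluster (37.5 CPM) and 15 in the stem/progenitor-like cluster (27.8 CPM).

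In the uninjured libraries Cx3cl1 was counted mainly in endothelial-like nuclei, which held 80.0% and 78.6% of its UMIs there. Its endothelial level was 21.1 and 10.9 CPM (8 and 11 UMIs) in the uninjured libraries, 0 and 6.48 CPM (0 and 2 UMIs) at day 3, 7.39 CPM (3 UMIs) at day 5 and 31.6 CPM (2 UMIs) at day 7. These are too few UMIs for the count filter, and the ratio of pooled UMIs, uninjured over day 3, of 2.39 had a counting interval of 0.576 to 21.1. An artery-like endothelial cluster held 5 and 8 of the uninjured UMIs (72.8 and 36.0 CPM). At day 5, stromal nuclei held 14 of the 21 Cx3cl1 UMIs, in 13 nuclei (2.32 CPM).

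Immune nuclei were the other source of the monocyte attractants. Immune Ccl2 was 0 and 75.0 CPM (0 and 21 UMIs) in uninjured periosteum, 66.4 and 76.3 CPM (19 and 322 UMIs) at day 3, 36.0 CPM (25.4 to 49.3) at day 5 and 15.4 CPM (2 UMIs) at day 7. Uninjured replicate 1 had only 17 immune nuclei, so its 0 says little, and uninjured replicate 2 lay within the day 3 range. Immune Ccl7 was 0 and 28.6 CPM before injury, 52.4 and 38.6 CPM at day 3, 37.8 CPM (27.0 to 51.5) at day 5 and 23.1 CPM (3 UMIs) at day 7. Neither passed within immune nuclei, nor at an unadjusted p under 0.05 (log2 fold changes 0.21 ± 0.75 for Ccl2 and 0.85 ± 0.96 for Ccl7, adjusted p = 0.99897 each, edgeR), where 0.748% of 5215 genes were called in either direction. Immune Cxcl5 was 0 in both uninjured libraries and 21.0 and 24.6 CPM (6 and 104 UMIs) at day 3, at least 2.37-fold higher over pooled UMIs against a floor of 3 UMIs. In day 3 replicate 2, Cxcl5 was 52.7 and 68.6 CPM in both neutrophil-like clusters and 10.2 and 31.2 CPM in both macrophage-like clusters. In day 3 replicate 1, both macrophage-like clusters (48 and 60 nuclei) and the larger neutrophil-like cluster (11 nuclei) held 0 Cxcl5 UMIs. Its 6 immune UMIs in that library lay among small remaining clusters, of 6 and 5 nuclei. Neutrophil-like nuclei were 10.8% and 39.3% of immune nuclei in the day 3 libraries. Other ligands were sparse in immune nuclei: at day 3, Cxcl12 was 0 and 15.2 CPM (0 and 64 UMIs), Cxcl14 was 0 and 9.00 CPM (0 and 38 UMIs) and Cxcl1 was 10.5 and 3.55 CPM (3 and 15 UMIs).

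The day 3 effect on Ccl2 differed between stromal and immune nuclei. In the test of that difference its stromal change exceeded its immune change by 5.82 ± 1.15 on the log2 scale (adjusted p = 0.00019671, edgeR), where 1.66% of 8382 genes passed in that direction. Of the 5 ligands tested for this difference, Ccl2 was the 1 that passed. For Ccl7 the difference was 2.53 ± 1.01 (adjusted p = 0.21561). For Cxcl5 it was -0.85 ± 2.52 (adjusted p = 0.97232, edgeR), so its stromal rise was not shown to exceed its immune change, for which the uninjured libraries held 0 UMIs. The Ccl2 value rests on the single uninjured stromal UMI and on the immune nuclei of uninjured replicate 2. Without that library the value reversed to -0.81 (adjusted p = 1.0, edgeR), with 0 Ccl2 UMIs left in uninjured stromal and immune nuclei. Without day 3 replicate 2 it was 4.84 (adjusted p = 0.3015, edgeR). The monocyte receptor Ccr2, an immune cell gene, passed in the same direction (5.14 ± 0.95, adjusted p = 3.753e-05, edgeR).

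Immune RNA was counted in stromal nuclei more at day 3, and its part in the stromal Ccl2 and Ccl7 values was not tested. The 5 general immune markers summed to 86.4 and 99.6 CPM in stromal nuclei of the uninjured libraries and to 216.9 and 614.0 CPM at day 3, with 0 of the 5 markers at 0 in the day 3 libraries. At day 3 they stood in stromal nuclei at 5.86% and 7.45% of their immune level, and the 7 macrophage markers at 6.14% and 9.31%, the 6 neutrophil markers at 24.6% and 14.7% and Ccr2 at 21.3% and 12.4%. Ccl2 stood at 32.3% and 77.3% and Ccl7 at 72.8% and 194.8% of the immune level. In uninjured replicate 2 the stromal level was 1.31% of the immune level for the immune markers, 0.773% for Ccl2 and 22.3% for Ccl7. In the other direction, 36 stromal markers in immune nuclei at day 3 stood at 8.31% and 8.71% of their stromal level, beside 14.7% and 12.7% for Cxcl5.

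**Figure D2:**
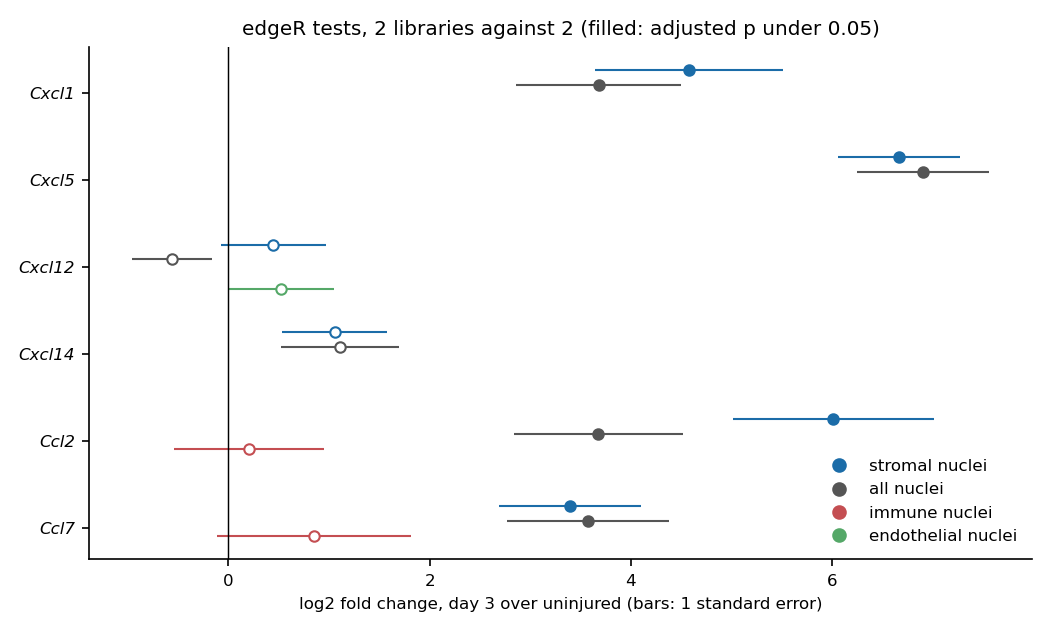
Log2 fold change of day 3 over uninjured libraries (horizontal axis, ± 1 SE) for each ligand tested in all, stromal, immune and endothelial nuclei; filled points have an adjusted p under 0.05. In stromal nuclei Cxcl5 (6.66), Ccl2 (6.01), Cxcl1 (4.58) and Ccl7 (3.39) are filled, and none is filled in immune or endothelial nuclei.

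The share of each ligand's UMIs by class showed which of the kept nuclei carried it. In day 3 replicate 2 the kept nuclei held 505 Cxcl5 and 324 Ccl7 UMIs. Barcodes outside the quality limits, which have no class, held more of both in that library, as given further below. Cxcl5 UMIs at day 3 were 89.6% and 75.8% stromal and 8.96% and 20.6% immune. Ccl2 UMIs were 95.5% immune in uninjured replicate 2, 67.9% and 71.7% immune at day 3 and 55.1% at day 5, with the stromal share rising from 4.55% in that uninjured library to 32.1% and 25.8% at day 3. Over both day 3 libraries the stromal share of Ccl2 was 29.0%, and it was 14.3% with clusters formed at resolution 0.8. Ccl7 UMIs were nearly evenly split at day 3, 51.6% and 45.7% stromal against 48.4% and 50.3% immune. Cxcl14 UMIs were 73.3% to 94.1% stromal in the 4 libraries with 10 or more UMIs. These shares follow the makeup of nuclei as well as the level in each class, and in sums over nuclei the number of nuclei and the RNA in each cannot be told apart.

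**Figure D3:**
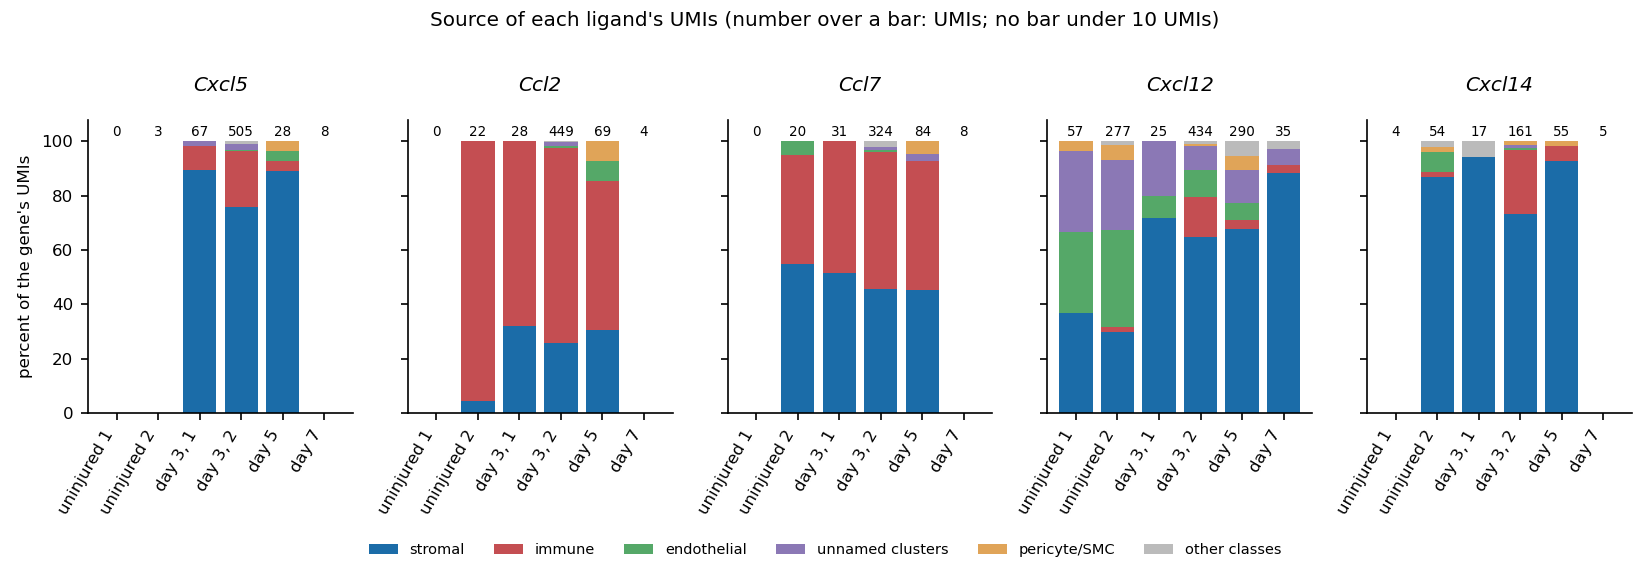
Percent of each ligand's UMIs in the kept nuclei (vertical axis) by class of nuclei in each library (horizontal axis) for Cxcl5, Ccl2, Ccl7, Cxcl12 and Cxcl14; libraries with under 10 UMIs have no bar. Stromal nuclei held 89.6% and 75.8% of Cxcl5 at day 3, and immune nuclei held 67.9% and 71.7% of Ccl2.

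Cxcl12 was spread over stromal and vascular nuclei, and its balance moved with injury. Stromal nuclei held 36.8% and 30.0% of its UMIs in the uninjured libraries, 72.0% and 65.0% at day 3 and 67.9% at day 5. Endothelial-like nuclei held 29.8% and 35.7% before injury and 8.00% and 9.68% at day 3. The endothelial share and test left out an unnamed cluster with endothelial markers, described below. It held 16 of 57 and 71 of 277 Cxcl12 UMIs before injury and 5 of 25 and 36 of 434 at day 3. Within endothelial-like nuclei Cxcl12 was 44.9 and 98.3 CPM in the uninjured libraries and 50.4 and 136 CPM (2 and 42 UMIs) at day 3, overlapping ranges with a log2 fold change of 0.53 ± 0.52 (adjusted p = 0.83484, edgeR), where 0.264% of 5692 genes were called. The 42 UMIs of day 3 replicate 2 lay in 8 of 41 nuclei, 26 of them in 1 nucleus. Pericyte or smooth muscle-like nuclei held Cxcl12 at 44.9 CPM (25.2 to 74.1) in uninjured replicate 2 and 45.1 CPM (24.6 to 75.6) at day 5. An unnamed cluster of 237 nuclei, with endothelial markers summing to as much as in the endothelial class (4674 to 7578 against 4635 to 8410 CPM), held Cxcl12 at 365 and 365 CPM (16 and 71 UMIs) in the uninjured libraries and 89.5 and 180 CPM (5 and 36 UMIs) at day 3. Its ratio of pooled UMIs, day 3 over uninjured, was 0.439 (counting interval 0.295 to 0.643), with 16 of the 36 day 3 replicate 2 UMIs in 1 nucleus. The day 3 effects on Cxcl12 in stromal and endothelial nuclei differed by 0.46 ± 0.64 on the log2 scale (adjusted p = 0.9249, edgeR), where 2.55% of 8382 genes were called.

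Over all nuclei together, which mixes level with makeup, the same 4 ligands passed as higher, with log2 fold changes of 6.90 ± 0.66 for Cxcl5, 3.68 ± 0.82 for Cxcl1, 3.57 ± 0.81 for Ccl7 and 3.68 ± 0.84 for Ccl2 (adjusted p = 0.017251, 0.046198, 0.048063 and 0.048922, edgeR), where 2.94% of 12699 genes were higher and 6.18% lower. The last 3 values lie close to the threshold of 0.05, and without uninjured replicate 1 only Cxcl5 passed. Cxcl12 stood at 65.3 ± 6.29 CPM before injury and 45.2 ± 24.6 CPM at day 3 (SD, n = 2 each), a log2 fold change of -0.56 ± 0.40 (adjusted p = 0.45313).

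Among stromal clusters of day 3, Cxcl5 was widely spread. Its level in day 3 replicates 1 and 2 was 132 and 334 CPM in the mixed stromal cluster, 225 and 222 CPM and 218 and 133 CPM in both IIFC-like clusters and 172 and 96.8 CPM in the stem/progenitor-like cluster. In the tendon-like cluster it was 17.7 and 30.3 CPM, below each of these in both libraries. Cxcl1 was 23.4 and 35.9 CPM in the mixed stromal cluster and 0 and 74.0 CPM, 32.8 and 31.0 CPM in the IIFC-like clusters, on 3 UMIs or fewer in each cluster of day 3 replicate 1. Ccl7 was 62.3 and 114.4 CPM in the mixed stromal cluster and 15.6 and 26.4 CPM in the stem/progenitor-like cluster. Cxcl12 was 54.5 and 230.1 CPM in the mixed stromal cluster, and its gap between the libraries held in the stem/progenitor-like cluster (46.8 and 132.0 CPM). Ccl2 was 20.4 and 93.3 CPM and 76.5 and 111 CPM in the IIFC-like clusters, against 119 and 124 CPM and 10.0 and 78.7 CPM in the macrophage-like clusters. The larger neutrophil-like cluster, with 11 nuclei in 1 of the libraries, held Ccl2 at 52.7 to 114 CPM and Ccl7 at 58.3 to 76.0 CPM. Cxcl14 was 140 and 150 CPM in the stem/progenitor-like cluster and 38.9 and 98.4 CPM in the mixed stromal cluster. The clusters were formed from these nuclei, so these levels are a description, with no test.

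**Figure D4:**
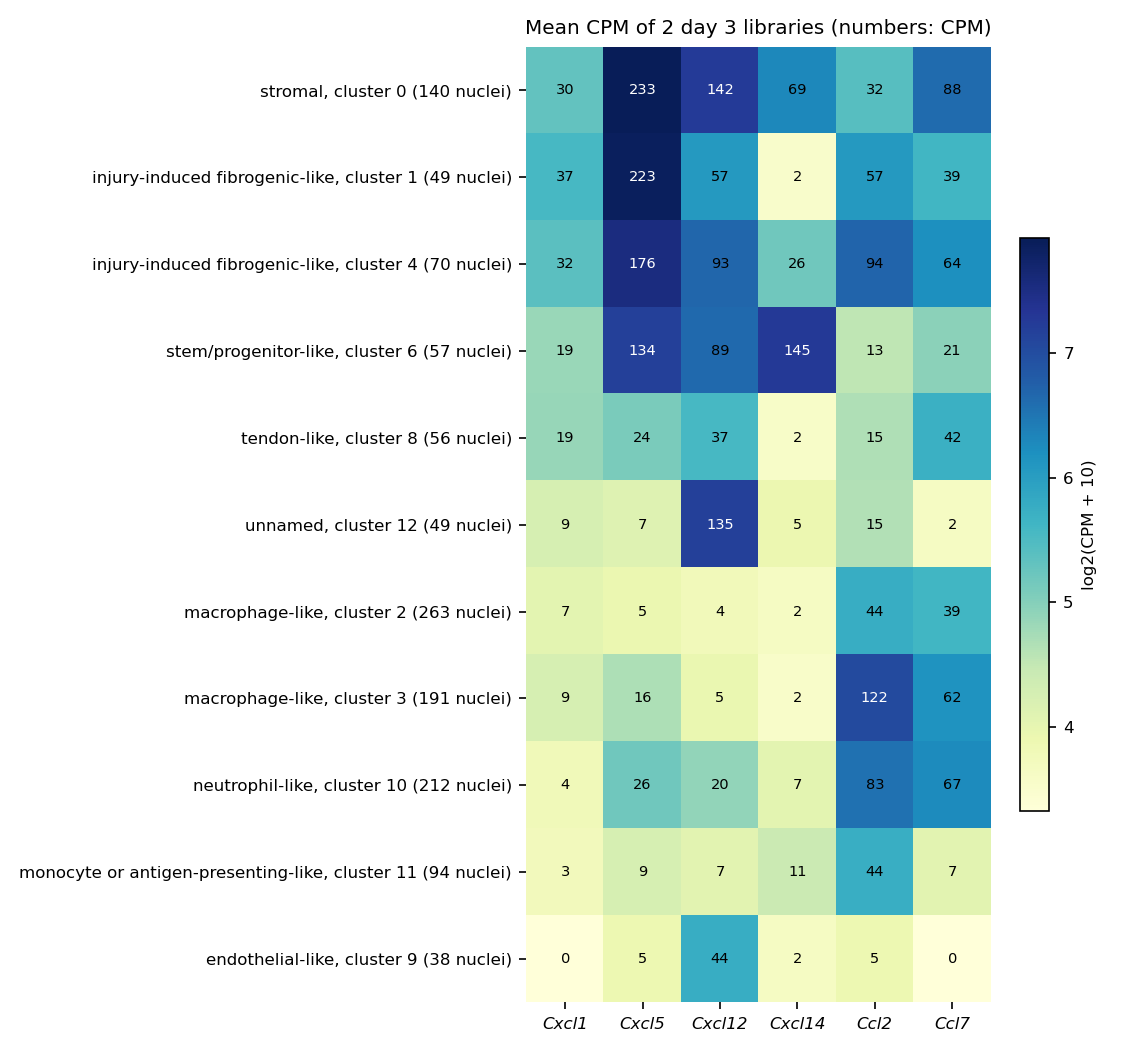
Mean CPM of Cxcl1, Cxcl5, Cxcl12, Cxcl14, Ccl2 and Ccl7 (columns, colour on a log scale) in each cluster (rows) over the 2 day 3 libraries, for clusters with at least 10 nuclei in each. Cxcl5 was highest in 4 stromal clusters (233, 223, 176 and 134 CPM), Ccl2 in a macrophage-like cluster (122 CPM) and Cxcl14 in the stem/progenitor-like cluster (145 CPM).

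Counted per nucleus at equal depth, each nucleus thinned to 500 UMIs and 22 shallower nuclei left out, Cxcl5 was seen in 10.0% (exact 95% interval 5.43 to 16.5) and 7.34% (4.60 to 11.01) of stromal nuclei at day 3, against 0.676% and 1.41% (0.732 to 2.46) of immune nuclei and 0 of 19 and 0 of 41 endothelial-like nuclei. The unthinned counts were 34 of 130 and 95 of 286 stromal nuclei, with median depths of 2373 and 5219 UMIs in stromal nuclei and 1622.5 and 3441 UMIs in immune nuclei. Ccl2 was seen in 2.31% and 2.10% of stromal and 2.03% and 3.42% of immune nuclei at that depth, and Ccl7 in 0.769% and 4.90% of stromal and 1.35% and 1.77% of immune nuclei. Stromal Cxcl12 was seen in 5.39% and 3.17% of nuclei before injury, 3.85% and 7.69% in the day 3 libraries and 1.66% and 1.19% by days 5 and 7, with overlapping ranges for uninjured and day 3 libraries. Stromal Cxcl5 was seen in 0 of 130 and 0.226% of nuclei before injury and in 0.332% and 0.238% at days 5 and 7. In thinned stromal nuclei of day 3 replicate 2, Cxcl1 was seen in 3 of 21 nuclei with Cxcl5 and 4 of 265 without it, and in day 3 replicate 1 in 2 of 13 and 0 of 117.

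Other genes of the chemokine system were taken from lists. Of 30 other ligands, 1 was tested in stromal nuclei (Ccl25, log2 fold change 0.67, not called), and over all nuclei 2 of 6 tested passed as higher and 0 as lower, Cxcl2, another neutrophil attractant (5.52 ± 1.09, adjusted p = 0.035999), and Cxcl16, a transmembrane ligand of Cxcr6 (3.67 ± 0.83, adjusted p = 0.048068, edgeR). These totals mix level with makeup. In day 3 replicate 2, immune nuclei held 104 of 111 Cxcl2 UMIs and 336 of 383 Cxcl16 UMIs. Within immune nuclei Cxcl2 was not tested, and Cxcl16 did not pass (1.81 ± 0.91, adjusted p = 0.91912, edgeR). Of all 12699 genes tested over all nuclei, 2.94% were higher and 6.18% lower. In stromal nuclei, 3.91% of 10086 genes were higher and 5.45% lower. Among the chemokine receptors tested in stromal nuclei, 2 passed as lower, Ackr3, a scavenging receptor of Cxcl12 (120.9 and 126.9 CPM before injury, 16.7 and 55.4 CPM at day 3, log2 fold change -1.79 ± 0.46, adjusted p = 0.037432), and Ackr1, which binds many chemokines and marks venules (30 UMIs against 0, at least 12.2-fold lower, adjusted p = 0.014229, edgeR). Ccr2, a leukocyte receptor, passed as higher (4.30 ± 0.97, adjusted p = 0.022908, edgeR) and stood in stromal nuclei at 21.3% and 12.4% of its immune level at day 3, beside the immune marker values given above. Over all nuclei Ackr3 (-1.84 ± 0.42, adjusted p = 0.04814) and Ackr1 (-2.85 ± 0.54, adjusted p = 0.033125, edgeR) were lower. Within endothelial-like nuclei, which held 74 UMIs of Ackr1 in uninjured replicate 2 and fell in share with injury, Ackr1 was 29.0 and 73.5 CPM before injury and 75.6 and 64.8 CPM at day 3, a log2 fold change of 0.24 ± 0.60 (adjusted p = 0.95781, edgeR). Within immune and endothelial nuclei 0 of the tested other ligands passed (edgeR). At an unadjusted p under 0.05 there were 1 of 5 in immune nuclei and 0 of 2 in endothelial nuclei. Of all genes tested, 272 of 5215 in immune nuclei and 604 of 5692 in endothelial nuclei were under it (edgeR).

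Of 26 inflammatory inducers and feedback genes, 20 were tested in stromal nuclei, and 6 passed as higher and 1 as lower. Of all 10086 genes tested there, 3.91% were higher and 5.45% lower. The median log2 fold change of the 20 was 1.06, against 0.01 over all genes. Il1r1, the signalling receptor of interleukin-1, was 133.9 and 385.2 CPM in uninjured stromal nuclei, 1707 and 1351 CPM at day 3, 281.3 CPM at day 5 and 216.6 CPM at day 7, without overlap (2.49 ± 0.52, adjusted p = 0.016638, edgeR). Osmr, the oncostatin M receptor, rose from 103.7 and 102.5 CPM to 252.7 and 302.4 CPM (1.37 ± 0.32, adjusted p = 0.027389, edgeR). Il1b, the cytokine itself, had 46 stromal UMIs at day 3 against 0, at least 12.6-fold higher, but stood there at 18.2% and 12.7% of its immune level. Il6ra was lower (-1.86 ± 0.42, adjusted p = 0.023, edgeR). The lists were chosen with earlier results of these data known, so their counts are a description.

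Likeness over the 20 sums of a library and class was measured by Pearson's r of log levels over 7328 genes, as a description in which the sums of a library share depth and processing. Cxcl5 was the gene most like Cxcl1 (r = 0.916), followed by Slc39a14 (0.780). Slc39a14, a zinc transporter, was also most like Cxcl5 (0.842), for which Cxcl1 was not compared because its mean level lay under the minimum of 20 CPM. Hspd1 and Npm1 came next for Cxcl5 (0.822 and 0.812). Ccl2 was most like Baz1a (0.892) and Fcer1g (0.890), the latter an immune signalling chain, Ccl7 like Mapkapk3 (0.866), Cxcl14 like Aldh1a2 (0.855) and Cx3cl1 like Pkn3 (0.893). Cxcl12 was most like Slc50a1 (0.901).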

How the data were processed

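Nuclei were sorted from periosteum, and injured periosteum with hematoma or callus, and sequenced by droplet 3′ RNA-seq. The authors deposited UMI counts per gene and barcode for each library, made with Cell Ranger 6.0.0 or 7.1.0 against mm10 with intronic and exonic reads counted. These raw counts were used as deposited. Kept barcodes had 200 to 5000 genes, with mitochondrial UMIs below 2.0% and ribosomal UMIs below 1.5%. Muscle clusters were removed, and nuclei were integrated and clustered in Seurat 5.3.0 (20 components, resolution 1.3). Clusters were named by marker lists. A name needed at least 3 markers detected in 10% of nuclei and a mean log2 ratio of 1.5 (10 CPM added), and no more markers of another class among the top 10 genes. Scrublet in scanpy 1.11.5 (expected rate 6%) marked 90 nuclei as doublets, and they were kept.

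UMIs were summed per library and class and tested in edgeR 4.0.16 (R 4.3.3; filterByExpr, TMM, quasi-likelihood F test, Benjamini-Hochberg threshold 0.05), 2 uninjured against 2 day 3 libraries. The tests of a difference between classes had the library as a block. The SE was the absolute log2 fold change divided by the square root of F. An exact permutation test of 2 against 2 cannot fall below p = 0.333 and was not used. Replicates are separate libraries of pooled mice. The labels do not say how their animals were divided, and the p-values measure only the spread between these libraries. Intervals of CPM and ratios are exact and, with those of shares, have a level of 95% and cover counting error only. Zero groups were set to a floor of 3 UMIs. The steps were tested on simulated data. Alternatives were DESeq2 1.42.0, no count filter, resolution 0.8, no integration, relaxed limits, muscle kept and each library left out. The text names all 8 ligands, and up to 6 genes of each other list, first those called in stromal or all nuclei and then those with the highest CPM. The genes most like each ligand were ranked by Pearson's r. The ligands and lists were chosen with earlier results of these data known. A receptor of the list is not reported here.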

Additional observations from a re-analysis of the deposited data

Results flagged for a closer look

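The day 3 change of Ccl2 was larger in stromal than in immune nuclei by 5.82 on the log2 scale (interaction test, adjusted p = 0.00019671, edgeR), with 1 stromal UMI in the uninjured libraries. Barcodes outside the quality limits in day 3 replicate 2, 2946 in number and not used in any comparison, held Cxcl5 at 109.5 CPM (2148 UMIs), Ccl7 at 48.1 CPM (943 UMIs) and Cxcl1 at 23.4 CPM (459 UMIs), above the uninjured libraries. The 519 muscle nuclei left out of the same library held Cxcl5 at 25.4 CPM (80 UMIs), Ccl2 at 23.2 CPM (73 UMIs) and Ccl7 at 10.5 CPM (33 UMIs). Uninjured replicate 1 held 29 UMIs of EGFP in 24 barcodes and 14 UMIs of tdTomato in 12 barcodes, reporter genes that no label of these libraries names, and uninjured replicate 2 and day 3 replicate 2 held 0 of both.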

How the results depend on the processing

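Of the log2 fold changes of single ligands under the alternatives, 185 kept direction and side of the threshold, 15 kept direction but no longer passed, and 5 reversed. Those were Cxcl12 in stromal nuclei without day 3 replicate 2 (-0.45) and without uninjured replicate 2 (-0.01), Cxcl12 in endothelial nuclei without day 3 replicate 2 (-0.63), the stromal against endothelial difference of Cxcl12 without uninjured replicate 2 (-0.82), and the stromal against immune difference of Ccl2 without uninjured replicate 2 (-0.81), where no immune Ccl2 UMI was left before injury. With each library left out in turn these ranged from -0.45 to 1.01, -0.63 to 1.14, -0.82 to 1.14 and -0.81 to 6.09 in that order. Stromal Cxcl5 ranged from 6.48 to 10.28 and passed under each alternative run. With each library left out in turn, ligands called higher ranged from 1 to 4 in stromal and 1 to 3 in all nuclei. Genes called ranged from 570 to 1076 (stromal, 944 with all libraries), 227 to 1429 (all nuclei, 1158), 0 to 7 (immune, 39), 0 to 144 (endothelial, 15), 5 to 267 (stromal against immune, 195) and 4 to 245 (stromal against endothelial, 214). With muscle nuclei kept, 321 genes and 1 ligand were called over all nuclei. Without the count filter the counts were 2595 (all nuclei), 294 (endothelial), 113 (stromal against immune) and 142 (stromal against endothelial). DESeq2 called 0, 39, 53 and 87 in the immune, endothelial and both difference tests. The relaxed limits gave 14 (immune), 315 (endothelial) and 293 (stromal against immune), no integration 11 and 0 (immune, endothelial), resolution 0.8 gave 24 (immune), and unnamed clusters put in their closest class, chosen after seeing the data, 247 (endothelial). The cause was not tested. At resolution 0.8 the stromal share of Cxcl5 UMIs over both day 3 libraries was 64.8% against 82.7%, and that of Ccl2 14.3% against 29.0%. Of the day 3 shares of UMIs by class, 73 moved by less than the SD between both libraries and 11 by more. Of the day 3 shares of nuclei with a UMI, 33 moved by more, all upward, and 15 by less when nuclei were thinned to 1000 UMIs or not thinned. No paired analysis was possible because the labels carry no replicate numbers that pair libraries across groups.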

Other observations

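Adipocyte-like nuclei at day 5, 6 in number, held 15 Cxcl12 UMIs (620.5 CPM) in 4 nuclei, of which 11 lay in 1 nucleus. An unnamed cluster held 8 Cxcl5 UMIs in 1 of 5 nuclei of day 3 replicate 2. Of the 5 Cxcl1 UMIs of uninjured replicate 2, 3 lay in endothelial-like nuclei.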
